A study of Mus musculus with 5 samples.

Results

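The genes described here handle arginine on its way to nitric oxide and to polyamines: the synthase Nos2, the arginases Arg1 and Arg2, the transporters Slc7a1 and Slc7a2, the recycling enzymes Ass1 and Asl, the cofactor enzyme Gch1 and the polyamine enzyme Odc1. Every probe set annotated to 1 of these 9 genes was taken, which gave 19 of the 45101 probe sets on the array. A probe set is a group of short probes that read 1 transcript region. One of the 19, 1416239_at, carries a second symbol beside Ass1, that of Gm5424, which RefSeq lists as a transcribed pseudogene, so its signal cannot be assigned to either locus alone. All 19 passed the filter on low signals.

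Macrophages were taken from Matrigel plugs, a gelled matrix placed under the skin of Balb/c SCID mice aged 7 to 12 weeks. All mice carried a transgenic T-cell receptor specific for the idiotype of MOPC315, a mouse myeloma. Apart from cells with that receptor, SCID mice make hardly any T or B cells. Plugs with MOPC315 cells gave the tumoricidal macrophages (3 arrays), and plugs with an antigen-loss form of the same myeloma gave the control macrophages (2 arrays). Cells were sorted as CD11b+ on day 8. CD11b is also carried by neutrophils and by natural killer cells. The labels call the arrays biological replicates and do not say whether animals were pooled. The comparison asks how macrophages differ when the tumour cells beside them do or do not bear the antigen of the T cells.

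Arginine has competing fates in a macrophage. Nitric oxide synthase turns it into nitric oxide and citrulline, with tetrahydrobiopterin as a cofactor that Gch1 begins to make, while the arginases split it into urea and ornithine, which Odc1 turns into the first polyamine. Citrulline can be returned to arginine by Ass1 and then Asl. High Nos2 is the textbook mark of classically activated mouse macrophages and high Arg1 that of alternatively activated ones.

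Of 19 member probe sets 1 passed the test across the whole array: 1416239_at, shared by Ass1, argininosuccinate synthase, and Gm5424. It rose about 15.1-fold in tumoricidal macrophages. The call was lost with any 1 tumoricidal array left out, where 0 probe sets of the whole array were called. The probe set annotated to Ass1 alone, 1459937_at, was 4.01-fold higher and did not pass (limma adjusted p = 0.320). Slc7a2, an arginine transporter, lay higher in the tumoricidal arrays on 3 of its 4 probe sets, without passing that test. Nos2 was at or under the measurable floor in both control arrays and low in the tumoricidal arrays. Arg1 was bright in both groups and differed by 0.04 on the log2 scale. Whether fewer cells of a type or less RNA per cell underlies a difference cannot be told apart in RNA from a bulk sort.

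RefSeq promoter windows (GRCm38.p6) were at hand for 4 of the 9 genes, Ass1, Gch1, Slc7a1 and Odc1. Ass1 is shown because the probe set it shares with Gm5424 passed the test, and Gch1 because 1 of its probe sets was higher in each tumoricidal array than in each control array. The 250 bases before the start are given 5′ to 3′ in the direction of the gene, for Ass1 chr2:31470020-31470269 (+ strand) and for Gch1 chr14:47189414-47189663 (- strand). Capitals mark matches, on either strand, to any of the motifs searched: GAS (TTCNNNGAA), the core of ISRE (GAAANNGAA), an NF-kB type site (GGGNNTTCC), the E-box (CACGTG), CRE (TGACGTCA), the GC box (GGGCGG) and the TATA box (TATAAA).
Ass1: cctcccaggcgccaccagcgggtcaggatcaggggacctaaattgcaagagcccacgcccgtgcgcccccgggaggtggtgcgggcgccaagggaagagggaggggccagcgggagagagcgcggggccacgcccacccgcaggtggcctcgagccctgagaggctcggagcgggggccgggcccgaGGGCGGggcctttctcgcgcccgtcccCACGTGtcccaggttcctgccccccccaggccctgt
Gch1: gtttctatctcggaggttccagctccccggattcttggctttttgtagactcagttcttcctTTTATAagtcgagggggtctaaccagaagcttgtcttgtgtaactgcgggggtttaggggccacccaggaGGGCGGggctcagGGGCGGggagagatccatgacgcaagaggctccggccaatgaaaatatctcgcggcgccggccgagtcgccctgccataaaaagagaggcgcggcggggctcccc
The Ass1 window held 1 E-box, starting 36 bases before the start, and 1 GC box, starting 63 bases before it. The Gch1 window held 2 GC boxes and 1 TATA motif on the opposite strand, the latter starting 188 bases before the start. Of 32851 windows of the same length, 6.02% held the E-box, 32.7% the GC box and 12.4% the TATA box. Neither window held the letters of GAS, ISRE, NF-kB type or CRE, which 7.02%, 7.13%, 4.98% and 1.55% of windows held. No 2 of the 7 motifs overlapped in either sequence. GC content was 75.6% for Ass1 and 59.2% for Gch1. Of the windows not shown, the first of Slc7a1 held 1 GAS match, starting 146 bases before the start. The second of Slc7a1 and that of Odc1 held 0.

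The spread between arrays was judged on log2 signals after each array was scaled to a common median, with signals under 4.79 raised to that floor. Values given per array are scaled signals. Tumoricidal arrays are written T1, T2 and T3 and control arrays C1 and C2, numbered as in the labels. Spike-in control probe sets, RNAs added to each sample in fixed amounts, put T1, T2 and C1 in one batch, called A, and T3 and C2 in another, called B, with mean BioC signals from 611 to 685 in A and of 167 and 175 in B. Each batch held both groups. Defining macrophage genes were bright on each array, with Csf1r between 5186 and 6808 and Cd68 between 1885 and 4219. The median log2 difference over all tested probe sets was 0.09, against -0.11 with the scaling as deposited, and member differences are to be read against that shift.

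**Figure D1:**
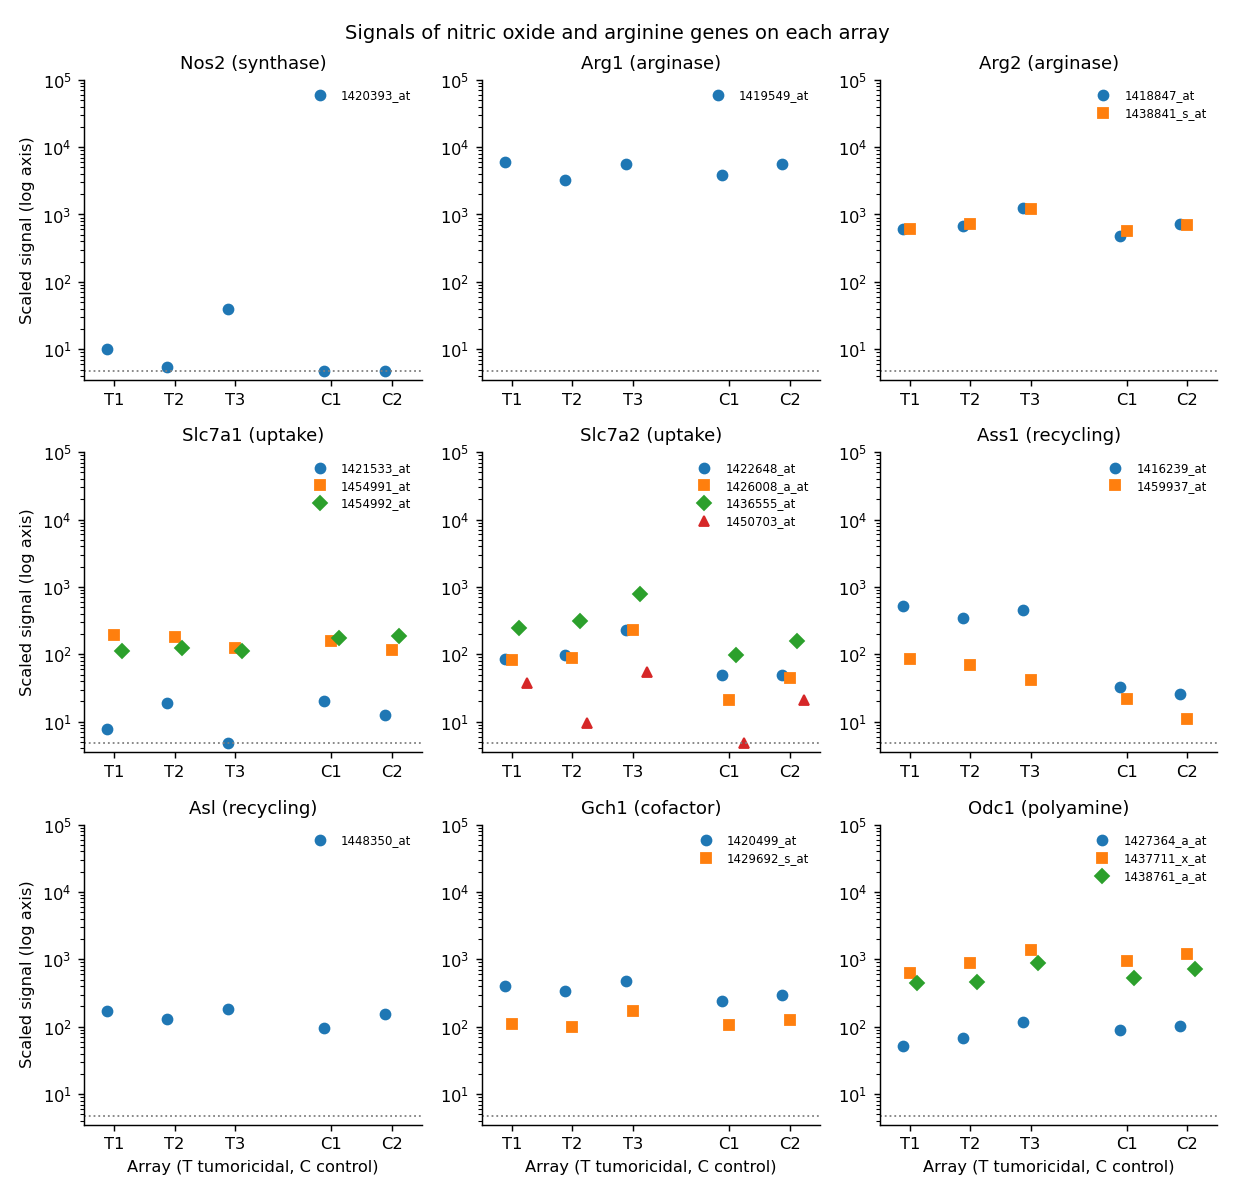
Scaled signal (log axis) of every member probe set on the 3 tumoricidal arrays (T1 to T3) and the 2 control arrays (C1, C2), 1 panel per gene and 1 marker per probe set. The dotted line is the floor of 4.79, and signals under it are drawn on it. Ass1 and 3 of 4 Slc7a2 probe sets have each tumoricidal array above each control array, while the Arg1 arrays overlap.

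Nos2, the inducible synthase that makes nitric oxide in activated macrophages, was read by 1 probe set, 1420393_at. Its signal was 10.1, 5.39 and 39.3 in T1, T2 and T3, and 0.956 and 0.900 in C1 and C2. Both control arrays lay under the floor, and T2 lay just above it. The groups did not overlap. With both controls raised to the floor, the geometric mean of the tumoricidal arrays was 2.69-fold higher (log2 1.43, SE 0.82, 95% interval -0.61 to 3.46). This did not pass (limma adjusted p = 0.783). T3 carried most of the size: the log2 difference was 0.59 without it, 2.06 without T2, 0.62 within batch A and 3.03 within batch B. With the floor lowered to the 10th percentile of signals the difference was 3.36, and with the 40th percentile 0.61.

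Arg1, the cytosolic arginase, gave 5919.7, 3232 and 5633 in the tumoricidal arrays and 3871 and 5569.8 in the control arrays. The means were 4928 ± 1476 (SD, n = 3) and 4720.2 ± 1201 (SD, n = 2), and the 2 control values lay inside the tumoricidal range. The log2 difference was 0.04 (SE 0.37), with a 95% interval from -0.88 to 0.95 that holds changes of nearly 2 times either way (0.54-fold to 1.94-fold). Its sign depended on the scaling, at -0.19 as deposited and -0.29 after quantile normalization.

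Arg2, the mitochondrial arginase, was read by a pair of probe sets that moved together. The first, 1418847_at, gave 611, 684 and 1238 in the tumoricidal arrays and 486 and 729 in the control arrays. T3 was the highest, and the other tumoricidal arrays lay between both controls. The difference was 0.43 (SE 0.40, limma adjusted p = 0.846), and that of 1438841_s_at was 0.37 (SE 0.36, limma adjusted p = 0.852). Without T3 they were 0.12 and 0.09, without C2 the first was 0.72, and with the batch as a block they were 0.56 and 0.47. No member probe set of either arginase passed at an unadjusted p under 0.05.

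Slc7a2 encodes a cationic amino acid transporter that supplies arginine to activated macrophages, and it was read by 4 probe sets. The brightest, 1436555_at, gave 247, 311 and 796 in the tumoricidal arrays and 97.0 and 156 in the control arrays, so that each tumoricidal array was above both controls and T3 was far above the rest. The means were 452 ± 300.1 (SD, n = 3) and 127 ± 41.9 (SD, n = 2), a log2 difference of 1.68 (SE 0.56, 3.20-fold, 95% interval 1.22-fold to 8.41-fold, limma unadjusted p = 0.0260, adjusted p = 0.534). For 1426008_a_at the signals were 83.2, 87.7 and 227 against 20.8 and 45.0, again with the groups apart, and the difference was 1.95 (SE 0.58, limma adjusted p = 0.467). For 1422648_at they were 85.5, 96.1 and 229 against 48.7 and 49.0, and the difference was 1.34 (SE 0.47, limma adjusted p = 0.565). The dimmest, 1450703_at, gave 37.1, 9.53 and 54.6 against 3.74 and 21.1; these overlapped, with C1 under the floor and a difference of 1.42 (SE 0.95).

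The 4 probe sets read 1 gene and are not replicates of each other. Within batch A their differences ran from 0.89 (1422648_at) to 2.04 (1426008_a_at), and within batch B from 1.37 (1450703_at) to 2.35 (1436555_at). With the batch as a block 1426008_a_at stood at 2.17 (SE 0.22, unadjusted p = 0.000352) and 1436555_at at 1.87 (SE 0.30, unadjusted p = 0.00253), with limma adjusted p of 0.165 and 0.258. Over single arrays left out, 1436555_at ran from 1.17 (without T3) to 2.02 (without C2), and 1450703_at from 0.35 (without C1) to 2.45 (without C2). All 4 differences kept a positive sign in each alternative run.

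Slc7a1, the transporter of the same family found in most cell types, did not give 1 direction. On 1454992_at the signals were 113, 126 and 114 in the tumoricidal arrays and 172 and 188 in the control arrays, each tumoricidal array below both controls. The difference was -0.62 (SE 0.23, 1.53-fold lower, limma unadjusted p = 0.0373, adjusted p = 0.585), and stood at -0.53 in batch A and -0.72 in batch B. On 1454991_at the signals were 196, 181 and 125 against 160 and 115, which overlapped, and the difference was 0.28 (SE 0.32). The third, 1421533_at, was dim (7.83, 19.0 and 2.69 against 20.4 and 12.5), with T3 under the floor and a difference of -0.84 (SE 0.62).

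Ass1 joins citrulline to aspartate, the first step back to arginine. On 1416239_at, the probe set shared with Gm5424, the signals were 514, 349.9 and 462 in the tumoricidal arrays and 32.9 and 25.5 in the control arrays. The lowest tumoricidal array was more than 10 times the highest control array. The means were 442 ± 83.8 (SD, n = 3) and 29.2 ± 5.23 (SD, n = 2), a log2 difference of 3.91 (SE 0.29, 95% interval 9.21-fold to 24.6-fold), which passed over all 41053 tested probe sets (limma adjusted p = 0.0481) and stood at rank 10 by p-value. On 1459937_at, annotated to Ass1 alone, the signals were 85.7, 69.0 and 41.0 against 21.8 and 11.1. The groups were again apart, and the difference was 2.003 (SE 0.45, 4.01-fold, 95% interval 1.84-fold to 8.73-fold, limma unadjusted p = 0.00504, adjusted p = 0.320). No probe set on the array is annotated to Gm5424 alone.

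The size of the 1416239_at difference moved little across arrays: 3.69 within batch A, 4.18 within batch B, and from 3.73 with C2 left out to 4.10 with C1 left out. Its call did not hold with 1 tumoricidal array left out, where limma adjusted p ran from 0.112 to 0.256. Nor did it hold with the batch as a block (3.90, limma adjusted p = 0.145). In each of these runs 0 probe sets of the whole array were called. With the deposited scaling the difference was 3.68 (limma adjusted p = 0.0565), and with quantile normalization 3.78 (limma adjusted p = 0.0408).

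Asl, argininosuccinate lyase, completes the return to arginine. Its signals were 168, 131 and 180.5 in the tumoricidal arrays against 96.5 and 155 in the control arrays, which overlapped. The difference was 0.37 (SE 0.32, 95% interval -0.41 to 1.16, limma adjusted p = 0.830), and it was 0.03 without C1 and 0.72 without C2. The interval of the probe set annotated to Ass1 alone, from 0.88 to 3.13, overlapped that of Asl, while the interval of the probe set shared with Gm5424, from 3.20 to 4.62, did not. The difference between both genes was not tested.

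Gch1, GTP cyclohydrolase, makes the first intermediate of tetrahydrobiopterin. On 1420499_at the signals were 408, 339.6 and 480.4 against 242 and 297, so that each tumoricidal array exceeded both controls. The difference was 0.60 (SE 0.27, 1.51-fold, 95% interval 0.950-fold to 2.40-fold, limma adjusted p = 0.697), and both batches gave a like value, 0.62 for A and 0.69 for B. With the other scalings it was 0.37, both as deposited and after quantile normalization. The second probe set, 1429692_s_at, gave 110.0, 98.4 and 168 against 106 and 128; these overlapped, and its difference of 0.07 (SE 0.32) turned to -0.16 and -0.08 under the same 2 scalings.

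Odc1, ornithine decarboxylase, was read by 3 probe sets. The brightest, 1437711_x_at, gave 625, 889.6 and 1385 in the tumoricidal arrays and 941 and 1194 in the control arrays, a difference of -0.21 (SE 0.39). The differences of 1427364_a_at (-0.35, SE 0.39) and 1438761_a_at (-0.10, SE 0.39) were of like size, and on all 3 the groups overlapped. Within batch A they ran from -0.56 to -0.19 and within batch B from 0.17 to 0.31, so that the sign of Odc1 differed between batches.

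**Figure D2:**
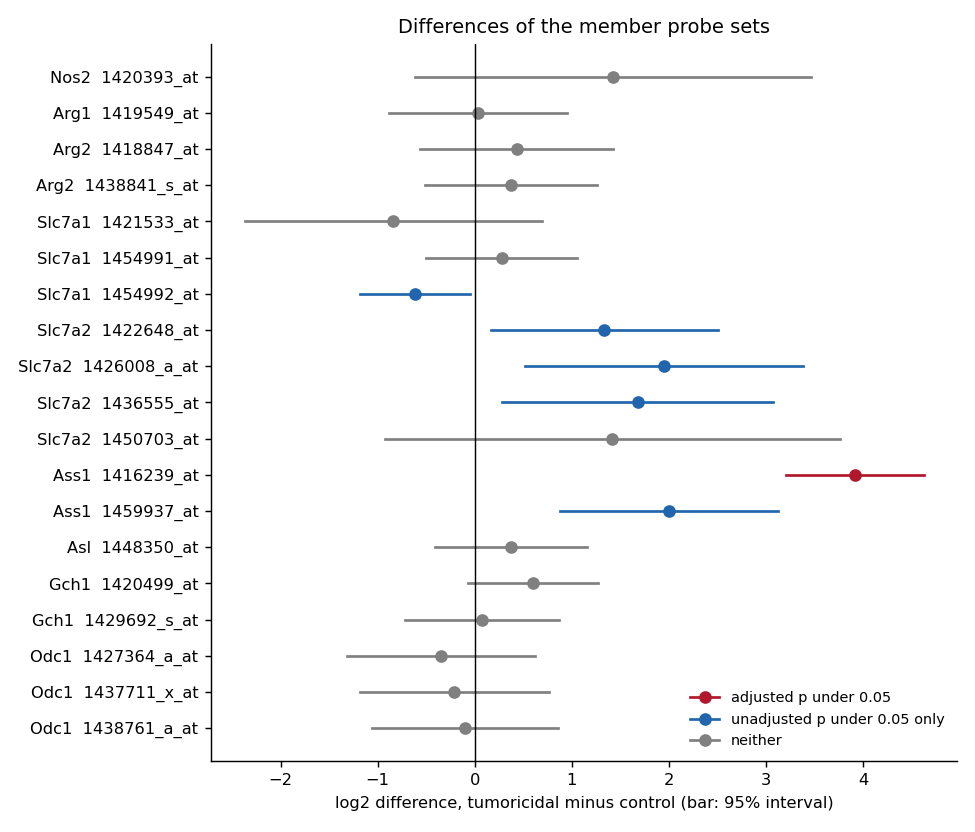
Log2 difference, tumoricidal minus control, of each member probe set (point) with its 95% interval from limma (bar), coloured by whether it passed the test. The Ass1 probe set 1416239_at at 3.91 is the one past the adjusted threshold, and the Arg1 interval runs from -0.88 to 0.95.

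Counted together, 1 of 19 member probe sets was called higher and 0 lower at an adjusted p under 0.05 (limma), where 0.0341% and 0.0171% of all tested probe sets were called higher and lower. At an unadjusted p under 0.05, 5 were higher, from Slc7a2 and Ass1, and 1 was lower, from Slc7a1. The same rule took 4.92% of all probe sets as higher and 3.07% as lower, that is, 2021 and 1259, a balance that turned to 1172 and 2500 with the deposited scaling and to 1722 and 1696 with quantile normalization. Every tumoricidal array exceeded every control array on 7 of 19, from Nos2, Slc7a2, Ass1 and Gch1, where 13.3% of all probe sets did so. Every tumoricidal array was below every control array on 1 of 19, where 7.60% of all probe sets were. As several probe sets read the same gene, these counts are not over independent items.

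**Figure D3:**
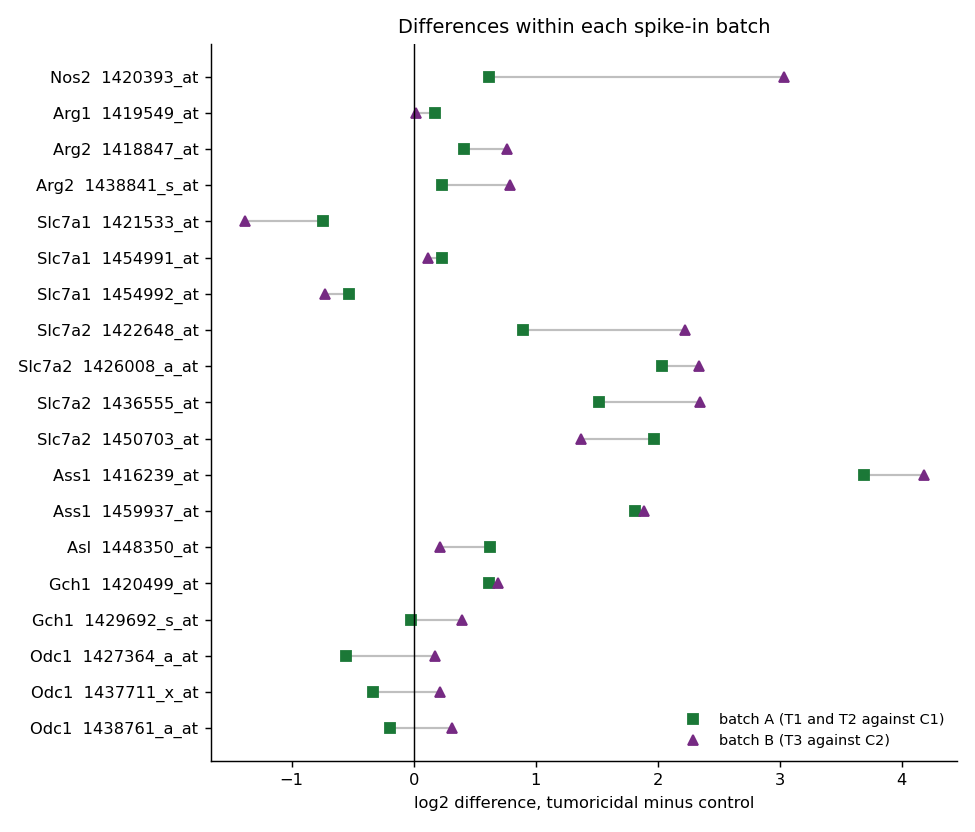
Log2 difference, tumoricidal minus control, of each member probe set within batch A (squares, 2 tumoricidal arrays and 1 control array) and batch B (triangles, 1 array of each group), joined by a grey line. Ass1 1416239_at is at 3.69 and 4.18, Nos2 is at 0.62 and 3.03, and the 3 Odc1 probe sets change sign.

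The other genes of the pathway, from lists of 64 symbols, showed little of this. Of these, 54 had a probe set of their own and 52 were tested, with 1 probe set per gene. Of the 52, 0 passed at an adjusted p under 0.05 (limma), where 0.0527% of named genes were called higher and 0.0117% lower. At an unadjusted p under 0.05, 1 was higher and 0 were lower, against 6.12% and 2.79% of named genes. That balance turned with the scaling, to 0 higher and 2 lower as deposited and to 0 higher and 1 lower after quantile normalization, as it did with the replicate number as a block. The median difference was 0.11 against 0.13 over all 17074 named genes tested. Groups were apart upwards in 3 of the 52 (17.0% of named genes) and downwards in 4 (6.51% of named genes).

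The 1 gene was Gatm, which uses arginine in the first step of creatine synthesis. Its signals were 696, 693 and 872 against 309.98 and 562, a difference of 0.84 (SE 0.34, limma unadjusted p = 0.0478, adjusted p = 0.617). It missed the unadjusted threshold with the deposited scaling (0.61, limma unadjusted p = 0.0541), after quantile normalization (0.58, limma unadjusted p = 0.0549) and with the replicate block (0.73, limma unadjusted p = 0.152), and over single arrays left out it ran from 0.41 (without C1) to 1.27 (without C2). The other genes apart upwards, singled out after their values were seen, were Eif5a (0.47), a translation factor modified with a polyamine-derived group, and Oaz1 (0.31), the antizyme that restrains Odc1. Those apart downwards, singled out likewise, were Sat2 (-1.36), Prkg1 (-0.67), Otc (-0.36) and Ddah1 (-0.28), none past an unadjusted p under 0.05 here, though Prkg1 and Otc were past it with the deposited scaling and Prkg1 after quantile normalization.

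By branch, the other synthases Nos1 and Nos3 differed by 0.04 and 0.19. Among 9 tested transporters the median was -0.01, with Slc7a3 at 0.62 (SE 0.42) and 1 control array of it at the floor. Among 6 tested genes of tetrahydrobiopterin the median was 0.06, led by Spr, sepiapterin reductase, at 0.52 (SE 0.38). Of the urea cycle genes, Nags, which makes the activator of the cycle's first enzyme, stood at 0.83 (SE 0.59) with C2 at the floor, and Cps1, that first enzyme, was at the floor on all 5 arrays. Ddah2, which breaks down methylated arginines, stood at -0.30 (SE 0.25), and the median of its list of 4 was -0.09. Among 15 tested polyamine genes the median was 0.21, with 11 positive and Sat2, of the acetyltransferase family, at -1.36 (SE 0.73). The nitric oxide sensing list had a median of 0.20 over 6 genes, and its largest absolute difference was that of Prkg1, a cyclic GMP dependent kinase.

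**Figure D4:**
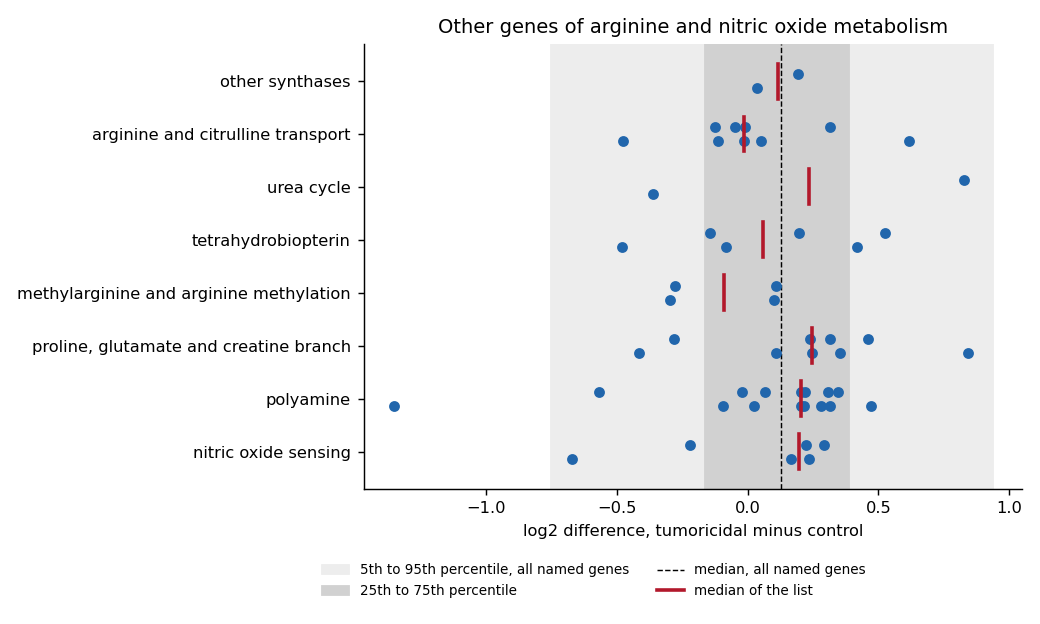
Log2 difference, tumoricidal minus control, of each tested gene of 8 pathway lists (points) with the list median (red bar), over the 5th to 95th and 25th to 75th percentile ranges of 17074 named genes (grey bands) and their median of 0.13 (dashed line). Most points lie inside the outer band, which runs from -0.75 to 0.94, and Sat2 at -1.36 lies outside it.

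Likeness of pattern was measured as the root mean square distance between log2 profiles over the 5 arrays, each centred on its own mean. This is a description of 5 arrays, chosen over 11994 genes above the floor on each array (17065 for Nos2). Nearest to Ass1 (1416239_at) were the interferon-inducible GTPases Gbp2 (0.16) and Gbp2b (0.20), and Calhm6 (0.23). Gbp2 gave 3164, 2167 and 2974 in the tumoricidal arrays and 187 and 202 in the control arrays, with T1 the highest and T2 the lowest of the tumoricidal arrays, as for Ass1. Nearest to Slc7a2 (1436555_at) were Adhfe1 (0.25), Nabp1 (0.25) and the complement protease gene C1ra (0.26), each highest in T3. Nearest to Nos2 were Myh14 (0.31), the chemoattractant gene Rarres2 (0.35) and the growth factor gene Csf2 (0.40). Csf2 was under the floor in both control arrays and in T2, and Myh14 in both control arrays (4.779 and 4.3). Nos2 was under it in both control arrays too, so there the likeness rests on values raised to the same floor.

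Markers of other cells moved between the same groups, and their part in the member differences was not tested. Of 6 tested natural killer cell markers all 6 were positive (median 2.41). Their summed signal ran from 1083 to 2809 in the tumoricidal arrays and from 199.7 to 514 in the control arrays. Klra8 was at the floor in 1 tumoricidal and both control arrays, and Eomes in C2. Of 9 neutrophil markers 8 were positive (median 0.98), with sums from 10052 to 11529 against 4613 to 7769.6. Of 12 plasma cell or myeloma markers 9 were negative (median -1.41), with sums from 3893 to 7163 against 8072 to 10120.1. Tnfrsf17 was at the floor in the 3 tumoricidal arrays, Cd79a in T1, T3 and C2, Derl3 in T3 and C1, and Fkbp11 in T2. Of 9 tested markers of eosinophils, mast cells and basophils 7 were positive (median 0.53), with sums from 151 to 186 against 31.2 to 74.7. Mcpt4 was at the floor on all 5 arrays, and of those tested only Siglecf was above it on each array. Epx, whose difference is that median, was at the floor in 2 tumoricidal arrays and 1 control array. Il5ra was there in 3 tumoricidal arrays and 1 control array, and Fcer1a in 2 of each group. Of 6 T-cell markers 5 were positive (median 1.82). They summed to 941 in T2 and to 97.4 and 77.0 in the other tumoricidal arrays, against 79.8 and 40.1. Cd3e and Cd247 were at the floor in C2, and Cd8a in T3. Without T2 the Ass1 difference on 1416239_at was 4.07. The part of T cells in that difference was not tested. Of 9 macrophage markers 8 were positive (median 0.33), with sums from 23302 to 35036 against 21483 to 27705.6 and none at the floor. Medians were 0.15 for inflammatory monocyte, -0.10 for dendritic cell, -0.05 for fibroblast and -0.19 for endothelial markers.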

How the data were processed

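RNA of sorted CD11b+ cells (3 tumoricidal and 2 control samples) was extracted with Trizol, labelled from 6 µg and hybridised by the Affymetrix procedure, per the labels' protocols. The authors deposited linear intensity values, 1 per probe set and array, and how they were summarised and scaled is not given in the sources used here. The mean after trimming 2% at each end was 100.0 on each array, while medians differed by up to 1.47 times.

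Arrays were scaled to their common median, 64 control probe sets were removed, signals under the pooled 25th percentile were raised to it and log2 was taken. The 3984 probe sets whose signals all lay at the floor were left out, and the other 41053 were compared with limma 3.58.1 (lmFit and eBayes, two-sided, Benjamini-Hochberg adjusted over all) in R 4.3.3, checked on simulated data; figures were drawn with Python 3.11.15 and matplotlib 3.10.9. The number of arrays limits the precision. The p-values set each difference against the spread between samples within groups, which limma moderates over all tested probe sets. By the platform annotation, which names the genes, 34945 probe sets have 1 symbol, 932 several and 9160 none; Entrez identifiers matched RefSeq (GRCm38.p6) for 34741 of those with 1 symbol and changed 0 of them. Outside the members a gene's value is its 1-symbol probe set with the highest mean; symbols with no such probe set are not analysed here.

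The members and lists were chosen with earlier results of these data known. Every member probe set was named; of each pathway list, genes at unadjusted p under 0.05 were named, or the one with the largest absolute difference, leaving out genes at the floor on 4 or more arrays; and the 3 genes nearest in pattern to Nos2 and to each member whose brightest probe set had unadjusted p under 0.05, where probe sets with 2 symbols were allowed for members. Other genes were named after their values were seen. Alternatives covered scaling, floor, pseudocount, filter, variance trend, replicate and batch blocks, probe set choice and single arrays left out.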

Additional observations from a re-analysis of the deposited data

How the results depend on the processing

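The differences of both Ass1 and all 4 Slc7a2 probe sets kept a positive sign in each alternative run, that of Nos2 in each where it was tested, and Arg2, Asl and Gch1 1420499_at did so too. The count of member probe sets called was 1. It was 0 with the deposited scaling, where 12 of all probe sets were called higher and 7 lower. It was also 0 with no filter, where 21 were called higher and 41 lower. With the floor at the 10th percentile, the replicate block or the batch block, 0 probe sets of the whole array were called. The same held with any 1 tumoricidal array left out. The member count at an unadjusted p under 0.05 was 6 and ran from 3 (without control replicate 1 or control replicate 2) to 8 (without tumoricidal replicate 2); that of probe sets with groups apart was 8, lay between 7 (floor at the 40th percentile, or probe sets above the median) and 9 (deposited scaling or quantile normalization) over the other settings, and ran from 9 to 13 (without control replicate 2) with 1 array left out. Groups of fewer arrays are apart more readily, so the rise in groups apart with 1 array left out is not read as a difference. The share of all probe sets apart in those runs is not given here. Of pathway genes 1, Gatm, was at an unadjusted p under 0.05, and it was higher. With the deposited scaling, quantile normalization or the replicate block 0 were higher. The count in both directions was 2 with the deposited scaling, pseudocount 16, the batch block or the mean over probe sets. It was 3 with the floor at the 40th percentile and 0 with the floor at the 10th percentile. Without tumoricidal replicate 1, 2 and 3 it was 0, 0 and 2, and counts from runs with 1 control array are left out here. The cause was not tested.

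Signs turned for Arg1, 1 Gch1 probe set and the 3 Odc1 probe sets, whose differences lay between -0.35 and 0.07. Arg1 was -0.19 with the deposited scaling, -0.29 with quantile normalization and -0.086 with the replicate block, and from -0.23 to 0.31 over single arrays left out. The Gch1 probe set 1429692_s_at was -0.16, -0.082 and -0.16 under the same 3 settings, -0.024 within batch A, and from -0.16 to 0.23 over arrays left out. Odc1 was 0.022 on 1438761_a_at with the batch block, and within batch B 0.17 on 1427364_a_at, 0.21 on 1437711_x_at and 0.31 on 1438761_a_at; over arrays left out 1437711_x_at ran from -0.51 to 0.067 and 1438761_a_at from -0.42 to 0.12.

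Replicate numbers 1 and 2 occur in both groups, but the labels do not pair them. Deviations from the group means over 20526 probe sets correlated at -0.04 between tumoricidal and control replicate 1 and at -0.46 between tumoricidal and control replicate 2, and those of tumoricidal replicate 3, which has no control of its number, at -0.41 with control replicate 1 and 0.41 with control replicate 2. With 2 controls, the deviations of one mirror those of the other. The replicate block left Ass1 1416239_at at 3.87 (limma adjusted p = 0.908) and called 0 probe sets, with 1103 higher and 933 lower at an unadjusted p under 0.05.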
